A study of Mus musculus with 6 samples.

Results

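The nuclear genes for the oxidative phosphorylation machinery were followed in germinal centre B cells of mice with and without a DAF transgene. The set was taken from the deposited table by symbol: every row starting with Nduf, Uqcr, Cox4 to Cox8 or Atp5, together with Sdha, Sdhb, Sdhc, Sdhd, Cyc1 and Cycs. This gave 94 of 23412 rows, none of which was at 0 in every library. They comprise 44 genes of complex I, 4 of complex II, 9 of complex III, the electron carrier cytochrome c (Cycs), 20 genes of complex IV and 16 of complex V. Of these, 90 had enough counts to be tested, and Ndufs5, Cox6a2, Cox8b and Ndufa4l2 did not. None of the rows is mitochondrially encoded, so the subunits encoded in mitochondrial DNA are not analysed here.

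The control mice carried Cg1-cre(+/-) and the DAF-TM mice carried Cg1-cre(+/-);R26-DAF-TM(fl/fl), so the Cre allele is shared by both groups. Another field of the labels adds DAF-Tg(+/+) to the controls. DAF (CD55) sits on the cell surface and protects the cell from complement. Cg1-cre expresses Cre recombinase from the immunoglobulin gamma 1 locus, and R26 stands for the Rosa26 locus. Sheep red blood cells were injected into the peritoneum of all mice, and viable B220+ GL7+ Fas+ spleen cells were sorted after 10 days. How many mice went into a library is not stated in the labels. The p-values therefore rest on the spread between these libraries, estimated mostly over all genes together. How much of that spread is technical is not known. The labels list 3 libraries per group, but the columns of DAF-TM 2 and DAF-TM 3 held the same value in every row and were counted as 1 sample, which left 3 control and 2 DAF-TM libraries. Which of the pair that column belongs to is not known, and it is called DAF-TM 2 here.

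Oxidative phosphorylation takes place in the inner mitochondrial membrane. Complex I oxidises NADH and complex II oxidises succinate, and both pass electrons to coenzyme Q. Complex III passes them on to cytochrome c, and complex IV hands them to oxygen. Complexes I, III and IV pump protons, and complex V, the ATP synthase, uses the returning protons to make ATP. Germinal centre B cells divide rapidly and are known to use oxidative phosphorylation for much of their energy supply.

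The 5 libraries held between 7257339 and 12783965 counts. Values below are CPM (counts scaled to a common library size) scaled with trimmed-mean (TMM) factors. Cd55 was measured at 23.5 to 34.4 CPM in the controls and at 713 and 726 CPM in DAF-TM, in the direction of the labels. Germinal centre B cell markers were abundant in every library, with a summed level of 10510 to 11901 CPM over 12 genes in the controls and of 10888 and 9584 CPM in DAF-TM. Of the 12, 0 were called and 2 were lower at an unadjusted edgeR p under 0.05, while 11 had a log2 fold change below 0 with the TMM factors (median -0.11) and in 4 both DAF-TM libraries lay below all controls. Over all tested genes 46.1% were below 0, and in 9.02% both DAF-TM libraries lay below all controls. Among genes above 500 CPM these shares were 88.1% and 37.6%. After cyclic loess normalization 5 of the 12 markers were below 0 and their median was 0.07. Markers of other cells differed between the groups: 6 of 8 natural killer cell markers passed the test as higher in DAF-TM, with sums of 18.1, 25.2 and 34.0 CPM in controls 1 to 3 and 93.8 and 56.5 CPM in DAF-TM 1 and 2. Among naive B cell markers 4 of 7 were higher, with sums of 953 to 1243 CPM in the controls and of 1316 and 1013 CPM in DAF-TM, and among macrophage markers 3 of 10 were higher, with sums of 84.8 to 144 CPM in the controls and of 149 and 100 CPM in DAF-TM. Of the plasma cell markers 1 of 8 was higher, and of 5 tested erythroid markers 0 were called. Of the T cell markers 1 of 9 was called higher and 6 were higher at an unadjusted edgeR p under 0.05, with a median log2 fold change of 0.85, while their sums were 273 to 304 CPM in the controls and 254 and 268 CPM in DAF-TM. Of 8 neutrophil markers 0 were called and 1 was lower and 1 higher at an unadjusted edgeR p under 0.05, while their median was -1.66 and their sums were 84.3, 76.8 and 253 CPM in the controls and 24.3 and 64.8 CPM in DAF-TM. Libraries also differed in sex-linked transcripts: Xist was high in control 1 and DAF-TM 2, Y-linked genes in controls 2 and 3, and DAF-TM 1 held both. Whether these differences took part in the values below was not tested. In such bulk samples, fewer cells of a type and less RNA per cell cannot be told apart.

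Before the groups are compared, some members need care because their coding sequence also occurs in other genes, mostly processed copies. Every stretch of 100 bases of each member's reference coding sequence was searched for in the transcripts of all other genes. In Ndufb4, Atp5l, Cox7c, Atp5g2 and Cycs every coding stretch of this length was found elsewhere (100%), in Atp5g1 92.2% and in Ndufab1 86.2%. These were the 7 members with 80% or more. Over their whole reference transcripts, the shared part ran from 24.4% in Ndufab1 to 100% in Atp5g2. The stretches below are shown because a 100-base read from them cannot be placed on 1 gene by its sequence. Positions count from 1 at the first base of the start codon, and the sequences are those of the GENCODE M21 reference transcripts (GRCm38).

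Ndufb4: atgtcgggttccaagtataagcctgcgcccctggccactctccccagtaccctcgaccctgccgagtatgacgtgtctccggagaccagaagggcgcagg
Cox7c: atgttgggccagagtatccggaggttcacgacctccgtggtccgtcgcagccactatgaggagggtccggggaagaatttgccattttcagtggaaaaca
Atp5g2: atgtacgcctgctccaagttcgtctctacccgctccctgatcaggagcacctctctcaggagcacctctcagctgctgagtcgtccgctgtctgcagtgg
Atp5l: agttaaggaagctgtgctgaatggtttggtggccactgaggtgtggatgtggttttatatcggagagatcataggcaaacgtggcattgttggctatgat
Ndufs5: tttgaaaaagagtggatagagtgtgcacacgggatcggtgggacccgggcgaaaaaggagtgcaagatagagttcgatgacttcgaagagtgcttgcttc

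The Ndufb4, Cox7c and Atp5g2 stretches span coding bases 1 to 100, that of Atp5l bases 207 to 306 and that of Ndufs5 bases 106 to 205. The Atp5l stretch occurred in 4 other genes, the Atp5g2 stretch in 2, and the others in 1. Compared per kilobase of reference transcript, the 7 members with 80% or more shared coding stretches had control levels of 6.59 to 69.0 CPM per kb, with a median of 24.0. The 68 members with none, leaving out the tissue-restricted isoforms, ranged from 8.26 to 902 CPM per kb with a median of 167. Of 11 members with some sharing below 80%, the median was 239 CPM per kb, above that of the members with none. Within complex IV, Cox7c stood at 24.0 and Cox4i1 at 573 CPM per kb. Whether reads with several possible origins were discarded is not stated in the sources used here, and the part of this in the levels was not tested. Ndufs5 (chr4:123712710-123718186), an accessory subunit of complex I with 52.1% of its coding stretches shared, had 1, 0 and 1 counts in the controls and 0 and 0 in DAF-TM. A count of 0 allows up to 3 counts. The row of its processed copy BC002163 held 4, 10 and 7 counts in the controls and 6 and 9 in DAF-TM. Ndufa12, another accessory subunit, had 53.3% of its coding stretches shared. It held 530, 767 and 382 counts in the controls and 597 and 573 in DAF-TM. Over whole reference transcripts, 27.0% of the stretches of Ndufs5 and 17.7% of those of Ndufa12 were shared. Gene positions are those of RefSeq (GRCm38.p6). Levels of these members therefore describe only the reads that were assigned to them.

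**Figure D1:**
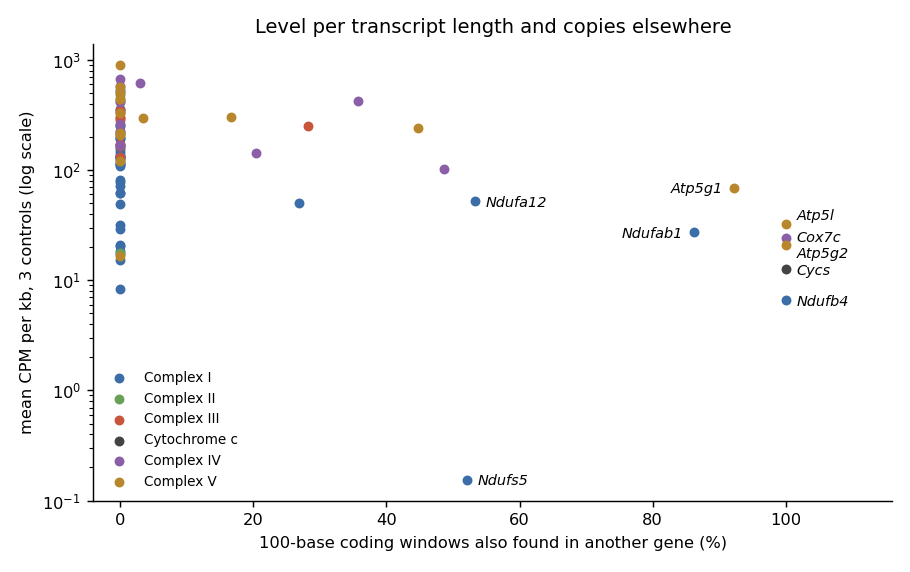
Level in the controls (mean CPM per kb of reference transcript, log scale) against the percentage of 100-base coding stretches found in another gene, for 86 members without the tissue-restricted isoforms. The 5 members at 100% lie between 6.59 and 32.5 CPM per kb, and Ndufs5 lies at 0.154.

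No member passed the test between DAF-TM and control. In edgeR's quasi-likelihood test over 18767 genes with Benjamini-Hochberg adjustment, 0.373% of all genes were called higher and 0.0373% lower (70 and 7 genes, adjusted p under 0.05). Of the 90 tested members 0 were called in either direction, and the lowest adjusted p among them was 0.860. The calls over all genes depended on single libraries, with 43 without control 1, 44 without control 3, 14 without DAF-TM 1 and 118 without DAF-TM 2, while the count among the members was 0 in each. At an unadjusted p under 0.05, 1 member was lower, against 2.06% of all genes; DESeq2 gave 0 adjusted calls and 2 members at an unadjusted p under 0.05. The precision was moderate: the median standard error of a member's log2 fold change was 0.17, and for 76 of 90 members the 95% interval lay within a 1.5-fold change either way. For 85 members it lay within 2-fold. Smaller shifts of single genes were not detectable with these libraries. The standard errors and intervals rest mostly on the trend over all genes, with a median of 1153 prior against 3 residual degrees of freedom. They therefore do not measure the spread of a member's own libraries.

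The fold changes nonetheless lay mostly on one side. In 79 of the 90 members the log2 fold change was below 0 with the TMM factors, in 66 with upper-quartile factors and in 62 after cyclic loess normalization. With the TMM factors the median was -0.16, beside a median of 0.03 and 46.1% below 0 over all tested genes. The share of all genes below 0 was larger at higher levels. It was 73.3% between 50 and 100 CPM, 83.1% between 100 and 200 CPM and 87.5% between 200 and 500 CPM. In these bands 14 of 15, 31 of 31 and 18 of 19 members were below 0. The same shares stand beside the TMM counts below 0 given for single complexes and lists further on. Beside their counts with other scalings stand the shares over all tested genes with that scaling, which were not split by level. Medians were -0.13 for complex I, -0.16 for complex II, -0.19 for complex III, -0.12 for complex IV and -0.17 for complex V. With library totals alone, a scaling chosen after the data were seen, they were -0.03, -0.05, -0.08, -0.01 and -0.06. Relative to the median of all genes, the members' median was -0.19 with the TMM factors, -0.18 with upper-quartile factors and -0.06 after cyclic loess normalization. With library totals alone it was -0.16, as the median of all tested genes was 0.12. With that scaling 61 members were below 0, against 30.5% of all tested genes. Without control 2 the members' median was -0.08, and -0.10 relative to all genes. Over the 83 members with at least 10 CPM, log2 fold changes ran from -0.42 to 0.17. Among the 3 controls the median coefficient of variation of these members was 10.1%.

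In 30 of the 90 tested members (33.3%) both DAF-TM libraries lay below all controls, against 9.02% of all tested genes. The share over all genes was larger at higher levels: 17.6% between 50 and 100 CPM, 23.1% between 100 and 200 CPM and 24.6% between 200 and 500 CPM, where 15, 31 and 19 of the members lie. The 30 were 9 of 43 members of complex I, 2 of 4 of complex II, 8 of 9 of complex III, 4 of 17 of complex IV and 7 of 16 of complex V. Cox7a1 was the 1 member with both DAF-TM libraries above all controls, against 11.3% of all tested genes. With library totals alone the lower counts were 3, 1, 2, 1 and 1 for complexes I to V, against 4.4% of all tested genes.

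**Figure D2:**
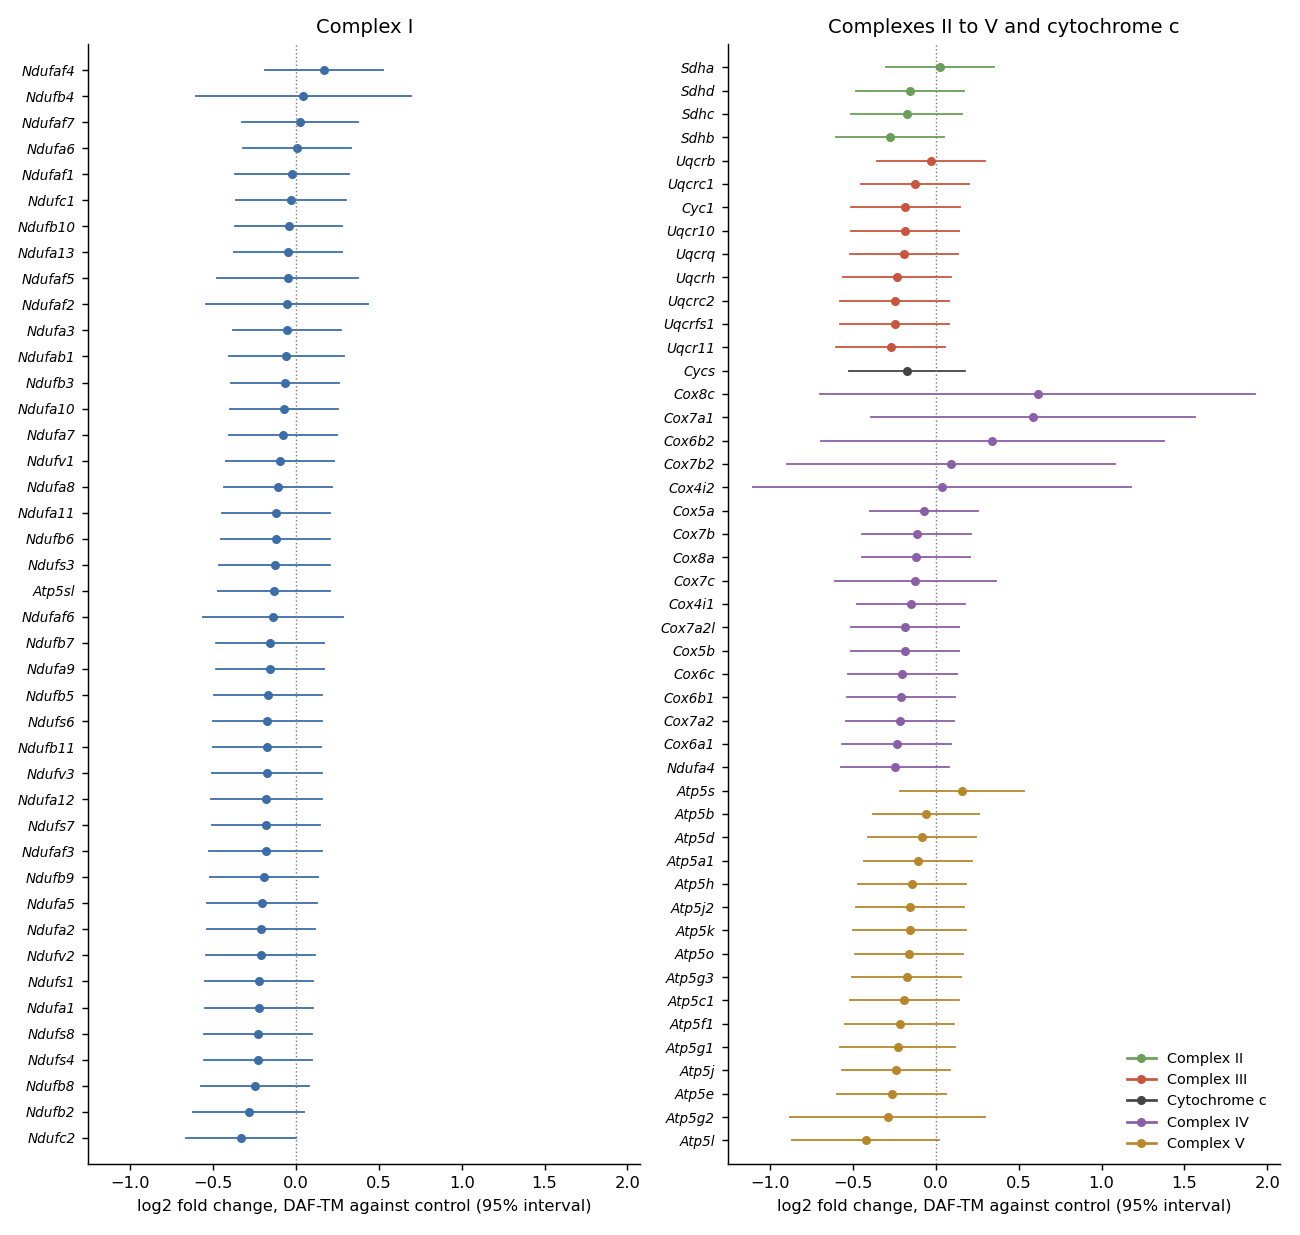
Log2 fold change of tested members with the 95% interval (edgeR), DAF-TM against control, grouped by complex. Most points lie below 0, and 1 interval, that of Ndufc2, leaves out 0.

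The members together took 1.58%, 1.61% and 1.51% of all counts in controls 1 to 3 and 1.46% and 1.58% in DAF-TM 1 and 2. These shares of counts overlapped between the groups. As summed TMM-scaled CPM the members stood at 16069, 17524 and 14910 in the controls and at 14849 and 14270 in DAF-TM, which put both DAF-TM libraries just below control 3. The mean sum was 16168 ± 1310 CPM (SD, n = 3) in the controls and 14560 ± 410 CPM (SD, n = 2) in DAF-TM.

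The 7 core subunits of complex I in the table bind the flavin and iron-sulfur clusters or line the path to coenzyme Q. All had a log2 fold change below 0 with the TMM and upper-quartile factors, and 5 of them after cyclic loess. Ndufv1, Ndufv2 and Ndufs1 form the end of the arm where NADH is oxidised. Ndufv1, which binds the flavin, stood at 137, 122 and 127 CPM in the controls and at 137 and 104 CPM in DAF-TM, and the groups overlapped. For Ndufs1, the largest iron-sulfur subunit, the values were 198, 245 and 186 CPM against 202 and 157 CPM. DAF-TM 1 lay within the controls and DAF-TM 2 below them. Ndufv2 stood at 240, 287 and 219 CPM in the controls and at 207 and 221 CPM in DAF-TM.

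Ndufs3, Ndufs7 and Ndufs8 lie on the way to coenzyme Q, and in each of them both DAF-TM libraries lay below all 3 controls with the TMM factors. The share of all genes with this pattern was 17.6% to 24.6% in the bands of level from 50 to 500 CPM. With library totals alone the groups overlapped in all 3 genes. Ndufs8 stood at 329, 357 and 310 CPM in the controls and at 278 and 288 CPM in DAF-TM, a log2 fold change of -0.23 ± 0.17 (SE) with an adjusted p of 0.945 in edgeR. Ndufs7 stood at 153, 138 and 147 CPM against 131 and 127 CPM. Ndufs3 stood at 51.5, 55.8 and 49.8 CPM against 48.9 and 46.9 CPM, and the gap between its groups was smaller than the spread among its controls.

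The accessory subunits of complex I, 29 in the table, surround the core and stabilise it. Ndufc2 (chr7:97400003-97407800), a subunit of the membrane arm, had the lowest p among the members. Its levels were 89.4, 97.5 and 83.8 CPM in the controls and 71.3 and 72.1 CPM in DAF-TM, so the DAF-TM libraries were close together and below every control. The log2 fold change was -0.33 ± 0.17 (SE), with a 95% interval of 0.632 to 0.998 as a ratio and an adjusted p of 0.860 in edgeR. Ndufb2 and Ndufb8, also of the membrane arm, followed. Ndufb2 stood at 75.4, 69.7 and 68.8 CPM against 56.0 and 60.9 CPM. Ndufb8 stood at 243, 265 and 220 CPM against 206 and 203 CPM. Of the 28 accessory subunits tested, 26 had a log2 fold change below 0 (19 with upper-quartile factors or cyclic loess). In 5 of the 28 both DAF-TM libraries lay below all controls, a share near that of all genes between 50 and 200 CPM (17.6% and 23.1% in the 2 bands), where most accessory subunits lie.

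The 8 assembly factors of complex I, which build the complex and include Atp5sl, now named Dmac2, were much lower than its subunits. Their control levels ranged from 8.26 to 31.9 CPM per kb with a median of 19.5, while the core subunits ranged from 50.1 to 426 CPM per kb with a median of 121. Their median log2 fold change was -0.05, and 0.02 with upper-quartile factors, and none had groups that did not overlap. Ndufaf4, chosen after its values were seen because its fold change was the highest among members with at least 10 CPM, stood at 31.7, 34.8 and 23.5 CPM in the controls and at 35.4 and 32.3 CPM in DAF-TM.

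Complex II has 4 subunits, all encoded in the nucleus. Sdha binds the flavin at which succinate is oxidised. It stood at 510, 479 and 485 CPM in the controls and at 593 and 406 CPM in DAF-TM: DAF-TM 1 was above and DAF-TM 2 below all controls, and the SD was 133 CPM in DAF-TM against 16.4 CPM in the controls. Sdhb, the iron-sulfur subunit that takes the electrons from Sdha, differed in its pattern. It stood at 530, 593 and 515 CPM in the controls and at 439 and 462 CPM in DAF-TM, a log2 fold change of -0.28 ± 0.17 (SE) with an adjusted p of 0.933 in edgeR. Sdhc and Sdhd anchor the complex in the membrane and hold its heme. Sdhc stood at 53.2, 61.2 and 53.7 CPM against 49.8 and 49.6 CPM, and Sdhd at 204, 230 and 184 CPM against 193 and 178 CPM. Both DAF-TM libraries lay below all controls in Sdhb and Sdhc, and the groups overlapped in Sdha and Sdhd. The difference in fold change between Sdha and Sdhb was not tested.

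In complex III all 9 members had a log2 fold change below 0 with the TMM factors, 8 with upper-quartile factors and 7 after cyclic loess. The bands from 100 to 200 and from 200 to 500 CPM hold all 9. In these bands 83.1% and 87.5% of all genes were below 0 with the TMM factors. In 8 of the 9 members the groups did not overlap with the TMM factors, against 23.1% and 24.6% of all genes in the bands. With library totals alone the groups did not overlap in 2, Uqcrq and Uqcr11. Uqcrfs1, the Rieske iron-sulfur protein, stood at 222, 256 and 203 CPM in the controls and at 196 and 186 CPM in DAF-TM. Cyc1, the heme protein cytochrome c1 that reduces cytochrome c, stood at 254, 262 and 265 CPM against 233 and 225 CPM. In Cyc1 the controls lay close together (SD 5.35 CPM) and the gap to the higher DAF-TM library was larger than their range. Its log2 fold change was -0.18 ± 0.17 (SE), with an adjusted p of 0.949 in edgeR.

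Uqcrc2, a core protein without a redox group, stood at 237, 295 and 215 CPM in the controls and at 213 and 207 CPM in DAF-TM. Uqcr11, a small subunit, stood at 158, 146 and 138 CPM against 133 and 110 CPM. Its log2 fold change was -0.27, the lowest in complex III. The exception to the separation was Uqcrb, which stood at 124, 174 and 104 CPM against 131 and 132 CPM. Uqcrb is named because it was the member that differed, and was chosen after its values were seen.

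Cycs, the soluble cytochrome c that shuttles electrons and also takes part in apoptosis, stood at 40.1, 43.2 and 34.1 CPM in the controls and at 39.7 and 29.9 CPM in DAF-TM. The groups overlapped, and the log2 fold change was -0.18 ± 0.18 (SE). As its whole coding sequence has copies elsewhere, these counts are uncertain.

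Complex IV is built from nuclear subunits of which several exist as a common and a tissue-restricted isoform. The 11 common isoforms all had a log2 fold change below 0 with the TMM factors, 10 with upper-quartile factors and 7 after cyclic loess, and the TMM median was -0.19. Cox4i1, which joins early in assembly, stood at 437, 459 and 384 CPM in the controls and at 376 and 395 CPM in DAF-TM, so DAF-TM 2 overlapped control 3. Cox6a1 stood at 369, 362 and 327 CPM against 303 and 296 CPM. Cox6b1, on the side facing cytochrome c, stood at 323, 339 and 293 CPM against 270 and 281 CPM.

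Ndufa4 carries a complex I name but was later assigned to complex IV. It stood at 294, 340 and 279 CPM in the controls and at 251 and 262 CPM in DAF-TM, with a log2 fold change of -0.24 and an adjusted p of 0.945 in edgeR. Cox6a1, Cox6b1 and Ndufa4 were the common isoforms with both DAF-TM libraries below all controls. Cox7a2 stood at 164, 204 and 153 CPM against 138 and 162 CPM, and Cox8a at 242, 238 and 208 CPM against 219 and 203 CPM. Cox7a2l, which helps to join complexes III and IV, stood at 105, 118 and 104 CPM against 95.6 and 95.7 CPM, and its groups did not overlap.

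The tissue-restricted isoforms were near the limit of detection. Cox6a2, Cox7a1 and Cox8b are known from heart and skeletal muscle, Cox6b2, Cox7b2 and Cox8c from testis, Cox4i2 from lung, and Ndufa4l2 as a gene induced by low oxygen. Their control levels ranged from 0.334 to 3.82 CPM per kb, with a median of 1.80, beside a median of 417 for the common isoforms. Cox4i1 made up 99.7% ± 0.098 of the Cox4i level per kb in the controls (SD, n = 3) and 99.6% ± 0.012 in DAF-TM (SD, n = 2). Cox6a1 made up 99.9% ± 0.086 and 99.9% ± 0.072 of its family, and Ndufa4 99.9% ± 0.064 and 99.9% ± 0.015.

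Cox7a1 made up 1.39%, 1.65% and 1.18% of the Cox7a level per kb in controls 1 to 3 and 2.45% and 2.57% in DAF-TM 1 and 2. Its own levels were 1.38, 2.04 and 1.09 CPM in the controls and 2.07 and 2.54 CPM in DAF-TM. DAF-TM 1 was separated from control 2 by less than the spread among the controls. The Cox7a1 log2 fold change was 0.59 ± 0.50 (SE), with a 95% interval of 0.763 to 2.95 as a ratio and an adjusted p of 0.949 in edgeR. Cox6b2 stood at 1.06, 1.61 and 1.77 CPM against 1.71 and 2.03 CPM, and Cox4i2 at 1.27, 1.10 and 1.64 CPM against 1.35 and 1.35 CPM. Cox8c stood at 0.741, 0.594 and 1.09 CPM against 0.812 and 1.61 CPM. In all 3 the groups overlapped.

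The members too low to test were Cox6a2 with 6, 2 and 6 counts in the controls and 6 and 2 in DAF-TM, Cox8b with 1, 3 and 0 against 1 and 2, and Ndufa4l2 with 10, 4 and 4 against 6 and 8. Summed over 9 muscle and heart markers the level was 26.6, 22.8 and 30.6 CPM in the controls and 22.0 and 41.6 CPM in DAF-TM. None of these 9 markers was at 0 in all libraries. Of the 8 tested, 0 were called and 1 was higher at an unadjusted edgeR p under 0.05. Their median log2 fold change was 0.25 with the TMM factors, with 1 below 0. After cyclic loess the median was 0.08, with 3 below 0. Their part in the isoform values was not tested.

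**Figure D3:**
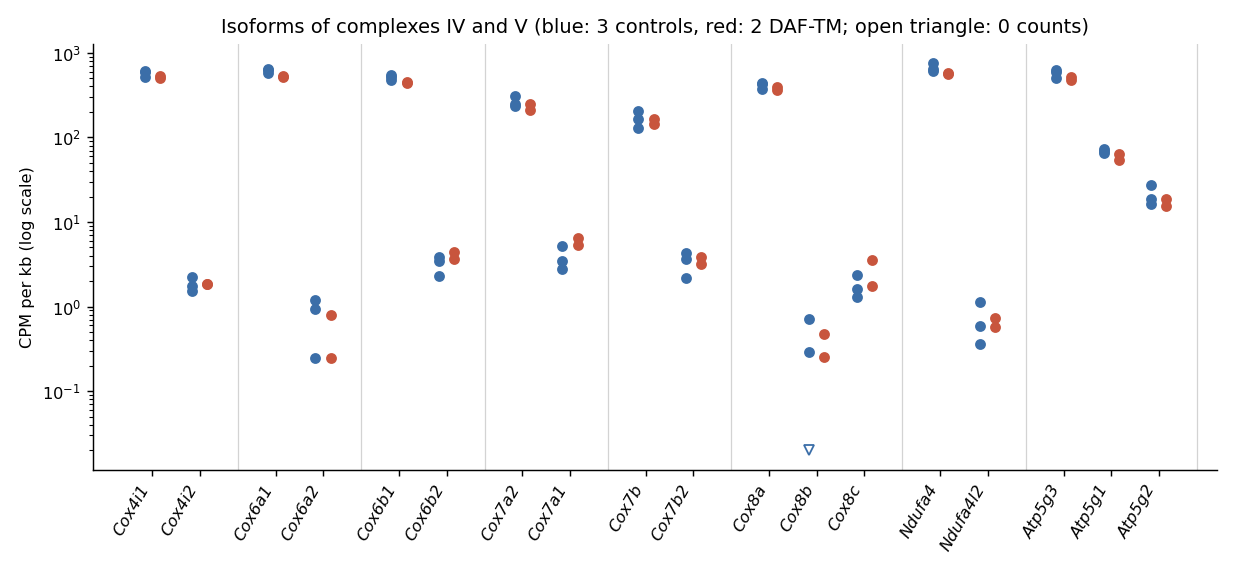
Levels of isoform families in CPM per kb of reference transcript (log scale). Each point is 1 library, blue for the 3 controls and red for the 2 DAF-TM libraries. In the families shown, the common isoforms of complex IV lie above 100 CPM per kb and the tissue-restricted ones below 10.

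Atp5b, the catalytic beta subunit of complex V, ranked first of the 94 members per kb of transcript, at 902 CPM per kb in the controls. It stood at 1709, 1806 and 1671 CPM in the controls and at 1734 and 1586 CPM in DAF-TM, and the groups overlapped. Atp5a1, the alpha subunit that alternates with beta in the ring, stood at 1205, 1283 and 1197 CPM against 1178 and 1103 CPM. Its log2 fold change was -0.11 ± 0.17 (SE) and that of Atp5b -0.06 ± 0.16 (SE), with a 95% interval for Atp5b of 0.768 to 1.20 as a ratio.

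The parts of complex V differed in where their fold changes lay, and both moved with the scaling. The 10 members of the membrane part and outer stalk were all below 0 with TMM factors, upper-quartile factors, cyclic loess and library totals, with medians of -0.20, -0.12, -0.07 and -0.09. The 5 members of the catalytic head and central stalk were all below 0 with TMM factors. With upper-quartile factors 4 were below 0, after cyclic loess 2 and with library totals 3. Their medians in the same order were -0.11, -0.03, 0.05 and -0.002. The difference between these parts was not tested.

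Atp5e, the epsilon subunit of the central stalk, stood at 145, 143 and 126 CPM in the controls and at 109 and 121 CPM in DAF-TM. Atp5j, coupling factor 6 of the outer stalk, stood at 299, 333 and 262 CPM against 251 and 253 CPM. Atp5l (chr9:44913248-44920742), subunit g of the membrane part, had the lowest log2 fold change of all tested members, -0.42 ± 0.23 (SE), with a 95% interval of 0.548 to 1.01 as a ratio. It stood at 15.04, 21.8 and 16.2 CPM against 12.6 and 13.9 CPM, with an adjusted p of 0.888 in edgeR. Atp5l rests on 119 to 257 counts per library, and its coding sequence has the copies shown above. Atp5s, the coupling factor B gene now named Dmac2l, was the complex V member with a log2 fold change above 0 (0.16), at 20.2, 31.3 and 21.8 CPM against 28.9 and 25.8 CPM.

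The c ring that carries the protons is made from Atp5g1, Atp5g2 and Atp5g3, genes that encode the same mature protein. Atp5g3 made up 86.3% ± 0.62 of their summed level per kb in the controls (SD, n = 3) and 86.9% ± 0.092 in DAF-TM (SD, n = 2). Atp5g1 made up 10.5% ± 0.80 and 10.1% ± 0.65, and Atp5g2 3.15% ± 0.69 and 2.97% ± 0.56. The proportions differed between the groups by less than the SD among the controls. In CPM, Atp5g3 stood at 418, 442 and 358 against 374 and 344, Atp5g1 at 43.4, 41.0 and 38.9 against 38.1 and 32.0, and Atp5g2 at 7.20, 12.0 and 8.32 against 6.85 and 8.20. The shares of Atp5g1 and Atp5g2 count only the reads assigned to them.

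The members shifted together from library to library, also within the control group. Among the 83 members with at least 10 CPM, control 2 was the highest of the 5 libraries in 65 and control 3 the lowest of the controls in 70. Over all 9049 genes tested at that level, control 2 was the highest in 44.9% and control 3 the lowest of the controls in 4162. DAF-TM 2 was the lowest of the 5 libraries in 41.0% of the members and in 46.3% of all genes. For DAF-TM 1 these shares were 31.3% and 11.1%. Median log2 differences of the members from their own control mean were -0.01, 0.13 and -0.13 in controls 1 to 3 and -0.13 and -0.16 in DAF-TM 1 and 2. The median in control 3 was thus as low as that in DAF-TM 1. Control 2 was also the library with the most counts and control 3 the one with the fewest, and the part of depth in this was not tested.

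The scaling factors bear on the same values. The TMM factor was 0.922 for control 2 and 1.11 for DAF-TM 2, with 0.982 to 1.01 in the others. Scaled by library totals alone, the members' medians were 0.00, 0.06 and -0.07 in controls 1 to 3. They were -0.11 in DAF-TM 1 and 0.025 in DAF-TM 2, which lay within the controls. Over all tested genes this scaling gave 0.00, -0.07 and 0.06 for controls 1 to 3, 0.02 for DAF-TM 1 and 0.23 for DAF-TM 2. The members' median thus lay below that of all genes in DAF-TM 1, DAF-TM 2 and control 3. It lay above it in control 2 and close to it in control 1. With this scaling, chosen after the data were seen, 8 members had both DAF-TM libraries below all controls and 3 had both above, against 4.4% and 16.7% of all tested genes. The 8 were Ndufa2, Ndufc2, Ndufs6, Sdhb, Uqcrq, Uqcr11, Cox6a1 and Atp5g1, and all of them were also among the 30.

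**Figure D4:**
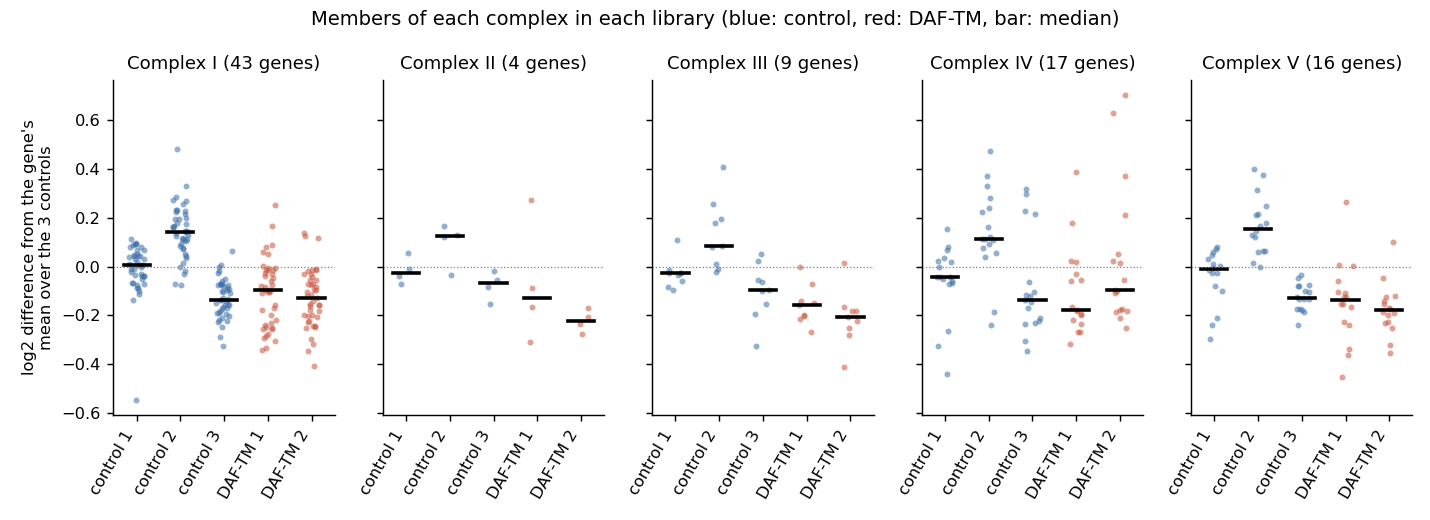
Log2 difference of each tested member from its own mean over the 3 controls, by library and complex, with the median as a bar. Control 2 is the highest library in the median of every complex, and in complex I the median of control 3 lies below those of both DAF-TM libraries.

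Level was a further property that the fold changes followed. Over all tested genes, the median log2 fold change was 0.23 between 1 and 10 CPM, -0.02 between 10 and 50 CPM, -0.09 between 50 and 100 CPM, -0.13 between 100 and 200 CPM and -0.15 between 200 and 500 CPM. In the same bands the members had medians of 0.07, -0.12, -0.17, -0.16 and -0.21. The bands hold 6, 15, 15, 31 and 19 members. Above 500 CPM the 3 members had a median of -0.11 and all 226 genes -0.16. Both DAF-TM libraries lay below all controls in 10 of the 31 members between 100 and 200 CPM and in 10 of the 19 between 200 and 500 CPM, beside the 23.1% and 24.6% of all genes given above.

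**Figure D5:**
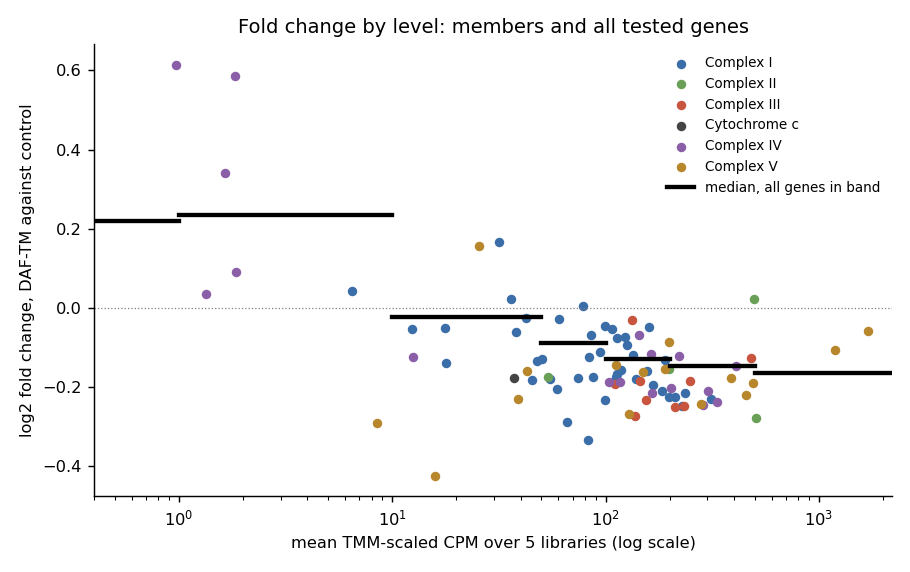
Log2 fold change (DAF-TM against control) of the 90 tested members against their mean level over 5 libraries (log scale), coloured by complex. Black bars give the median over all tested genes in each band of level, which goes from 0.23 between 1 and 10 CPM to -0.16 above 500 CPM.

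Transcript length went with the values in 1 library. Across the 83 members with at least 10 CPM, which share their libraries, the log2 difference from the control mean correlated with log2 transcript length in DAF-TM 1 (Pearson's r = 0.37, Spearman's rho = 0.27), while Pearson's r was 0.00 in DAF-TM 2 and between -0.04 and 0.08 in the controls. For the log2 fold change r was 0.29 and rho 0.22. The median log2 fold change was -0.19 in 34 members with transcripts under 700 bases, -0.17 in 13 between 700 and 1000 bases and -0.15 in 36 of 1000 bases or more. In the same classes the median difference was -0.16, -0.16 and -0.10 in DAF-TM 1 and -0.18, -0.14 and -0.16 in DAF-TM 2. The part of RNA quality or library preparation in this was not tested.

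The promoters of the members were searched for 4 motifs known from such genes. RefSeq promoter windows (GRCm38.p6, 250 bases before to 50 after the start) were matched for 77 members, and both strands were read. GCGCATGC, the site of nuclear respiratory factor 1 (NRF1), was found in 13 of 77 members (16.9%) and in 4.74% of tested genes. CCGGAAG, bound by ETS factors such as GABPA, was found in 17 (22.1%) against 15.05%, and AAGATGG, the YY1 site, in 12 (15.6%) against 7.79%. The TATA box letters TATAAA were found in 7 (9.09%) against 11.4%. The NRF1 and ETS letters were both found in 5 members, Atp5k, Atp5l, Cox6a1, Sdhb and Uqcr11. The windows of Cycs, Cox6a1 and Atp5l are shown up to the start, 5′ to 3′ on the gene's strand, as a carrier and a subunit each of complexes IV and V with the NRF1 letters. Capitals mark the NRF1 and ETS letters.

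Cycs: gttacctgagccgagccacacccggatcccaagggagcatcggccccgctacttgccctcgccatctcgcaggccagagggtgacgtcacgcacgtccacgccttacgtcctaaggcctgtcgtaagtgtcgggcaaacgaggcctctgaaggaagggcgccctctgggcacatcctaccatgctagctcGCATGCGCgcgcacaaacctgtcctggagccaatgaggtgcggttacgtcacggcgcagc
Cox6a1: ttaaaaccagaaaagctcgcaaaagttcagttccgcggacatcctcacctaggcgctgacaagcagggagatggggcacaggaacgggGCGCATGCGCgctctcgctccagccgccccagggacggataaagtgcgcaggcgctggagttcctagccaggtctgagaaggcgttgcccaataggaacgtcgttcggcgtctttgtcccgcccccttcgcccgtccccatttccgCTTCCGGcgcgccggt
Atp5l: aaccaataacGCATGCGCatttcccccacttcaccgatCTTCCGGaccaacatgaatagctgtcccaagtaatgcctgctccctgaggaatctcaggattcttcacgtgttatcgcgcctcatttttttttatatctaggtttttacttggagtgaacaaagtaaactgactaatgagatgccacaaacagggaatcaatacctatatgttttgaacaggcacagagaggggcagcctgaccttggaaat

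All 3 lie on the minus strand, at chr6:50566570-50566819, chr5:115348959-115349208 and chr9:44920743-44920992. Cycs shows the NRF1 letters in their reverse orientation (GCATGCGC). In Cox6a1 both orientations overlap in GCGCATGCGC, and the ETS letters follow near the start in reverse (CTTCCGG). In Atp5l both motifs lie at the far end of the window. The 13 members with the NRF1 letters had a median log2 fold change of -0.16, as did the 62 tested members whose window lacked them (-0.16). For the ETS letters the medians were -0.21 in 17 members and -0.14 in 58 without, and both DAF-TM libraries lay below all controls in 11 of 17 and 12 of 58. Over all tested genes with a window that share was 16.1% with the ETS letters and 8.42% without. Among those with at least 50 CPM it was 23.5% and 21.2%, beside 9 of 14 and 11 of 42 members. With library totals alone 3 of the 17 and 3 of the 58 were below all controls. These are counts of letters, and no test was made of them.

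Genes that build or regulate the same machinery, taken from lists outside the symbol rule, gave 0 adjusted calls in edgeR in either direction in each of 9 lists. Of 23 tested complex IV assembly factors, 20 had a log2 fold change below 0 and the median was -0.11 with the TMM factors, while 9 were below 0 with library totals alone. Over all tested genes 46.1% were below 0 with the TMM factors and 30.5% with library totals alone. Pet100, which binds an early intermediate of complex IV, was the 1 gene of these lists at an unadjusted p under 0.05, at 25.6, 33.5 and 25.6 CPM in the controls and 20.2 and 21.3 CPM in DAF-TM, with an adjusted p of 0.767 in edgeR. Sco2, a copper chaperone, was at 0 counts in every library. With the TMM factors, the 10 tested complex I assembly factors without an Nduf name had a median of -0.08, the 4 complex II factors one of -0.29, the 6 complex III factors one of -0.09, and the 5 genes of complex V assembly, inhibition and small subunits one of -0.21.

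Slc25a5, the ADP/ATP carrier that exchanges the product of complex V, stood at 1024, 1069 and 829 CPM in the controls and at 828 and 777 CPM in DAF-TM, with an adjusted p of 0.930 in edgeR. All 10 genes of its list of inner membrane carriers and organisers had a log2 fold change below 0 with the TMM factors, 8 with upper-quartile factors and 9 after cyclic loess, and the TMM median was -0.19. Coenzyme Q synthesis (13 genes) had a median of 0.02, and mitochondrial DNA maintenance and transcription (12 genes) one of -0.09. Among 11 regulators the median was -0.08, and 0.06 after cyclic loess. Nrf1 stood at 158, 148 and 166 CPM against 160 and 133 CPM. Gabpa stood at 170, 201 and 162 CPM against 165 and 135 CPM, and Ppargc1a, a coactivator of mitochondrial genes, at 4.45, 5.95 and 7.09 CPM against 5.86 and 8.03 CPM. In these 3 regulators the groups overlapped.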

How the data were processed

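RNA from sorted germinal centre B cells (10 ng per sample) was converted with an oligo-dT primed full-length kit and sequenced as 100 nt single-end reads, 12 libraries to a lane, per the labels' protocols. The deposited table holds raw counts per gene symbol, which the authors made with bcl2fastq, HISAT2 and featureCounts, per the submitters' processing notes, on mm10, per the file headers. Versions, annotation, strand setting and the handling of reads with several origins are unstated there. In 27 rows a date stood in place of a symbol (0.232% to 0.266% of counts). They were kept. The 5 distinct libraries held 7257339 to 12783965 counts.

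Groups were taken from the sample titles and compared in edgeR 4.0.16 (R 4.3.3) with TMM factors, filterByExpr and a robust quasi-likelihood fit over 18767 genes, two-sided, Benjamini-Hochberg adjusted at 0.05, after a test of the scripts on simulated data. Members and lists were chosen with earlier results of these data known. Per-library values were printed for the 3 members of lowest p per complex, the catalytic core and the isoform families. Values of 1 further member are not reported here. Log2 differences used CPM + 0.5. Lengths are those of 1 principal GENCODE M21 transcript per gene. Promoters and positions come from RefSeq (GRCm38.p6). All 94 members matched, 3 through an older symbol. Alternatives used RLE and upper-quartile factors, other filters, DESeq2 1.42.0, limma 3.58.1 with and without cyclic loess, a replicate block and each library left out.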

Additional observations from a re-analysis of the deposited data

How the results depend on the processing

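The count of called members was 0 in edgeR with TMM factors and in each of 13 other settings. The number of called genes over the whole table was 77. It was 39 with upper-quartile factors, 32 in DESeq2, 51 in limma-voom and 17 with cyclic loess, and ranged from 14 to 118 with a library left out. Where 1 DAF-TM library remained, it was assumed to vary like the controls. The members' median log2 fold change kept its sign and ranged from -0.20 to -0.08 with a library left out. It was -0.044 when libraries were scaled by their totals alone, a setting added after seeing the data, beside 0.12 over all tested genes. For complexes I to V in turn, that setting gave medians of -0.028, -0.054, -0.084, -0.013 and -0.060, cyclic loess -0.060, -0.059, -0.077, -0.059 and -0.032, upper-quartile factors -0.055, -0.089, -0.117, -0.047 and -0.094, and leaving out control 2 -0.081, -0.088, -0.145, -0.084 and -0.081. Without DAF-TM 2 the complex IV median was -0.186. For Cycs the value ranged from -0.40 without DAF-TM 1 to 0.015 without DAF-TM 2. Among 492 recomputed values of 38 named members, 15 changed sign, in 9 members, and none was called. With the replicate block, 61 genes and 0 members were called and the members' median was -0.22. Taking the column shared by DAF-TM 2 and DAF-TM 3 as number 3, a setting added after seeing the data, the block gave 105 genes, 0 members and a median of -0.083. Deviations of same-numbered libraries correlated at -0.12 for number 1 and at -0.25 for number 2, or 0.15 with that column as number 3. Taken from their own mean, the deviations of the 2 DAF-TM libraries mirror each other (correlation -1). These values therefore cannot decide whether the numbers mark pairs, and the numbers were not taken as pairs under either reading. The causes of these shifts were not tested. With 3 and 2 libraries, changes under 1.5-fold in single members were mostly beyond reach.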
